A study of Mus musculus with 36 samples.

Results

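The MAP kinase phosphatases are 10 genes of the 24058 measured, chosen by name: Dusp1, Dusp2, Dusp4 and Dusp5, whose proteins are nuclear and inducible, Dusp6, Dusp7 and Dusp9, which are cytoplasmic and selective for ERK, and Dusp8, Dusp10 and Dusp16, which prefer JNK and p38. They were measured in acute hippocampal CA3/CA1 mini-slices of adult C57BL/6 mice that carried 1 copy each of RiboTag, an allele that puts an HA tag on ribosomal protein L22 after Cre recombination, and of Camk2a-cre, which drives Cre in excitatory neurons. Both treatments carried both alleles and shared the same animals, and the mini-slices of several mice were pooled into each replicate. LTP slices received forskolin and then high potassium and calcium without magnesium, a chemical form of long-term potentiation, and basal slices received vehicle. Ribosome-associated RNA pulled down by the tag (TRAP-seq) and total RNA of the same homogenate (RNA-seq) were sequenced at 30, 60 and 120 min after induction, with 3 replicates in each of 12 groups. The questions were which phosphatases differed between LTP and basal slices, whether ribosome-associated and total RNA differed in this, and how it varied with time and class.

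MAP kinases such as ERK, JNK and p38 are switched on by phosphorylation of a threonine and a tyrosine, and the dual-specificity phosphatases remove both phosphates. Several of these phosphatases are themselves transcribed in response to MAP kinase signaling, which makes them feedback inhibitors of the pathway. In hippocampal neurons ERK is activated by synaptic activity and is needed for lasting forms of LTP.

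The sequence before the start site is shown for the members with a full cAMP response element (CRE) or a serum response (CArG) box there, and for Dusp6, which had none of the motifs searched and is described at length below. RefSeq promoter sequences (GRCm38.p6) were held for 8 members, Dusp4 and Dusp9 being named only. Motifs were searched on both strands in the 250 bases before the RefSeq start, and positions are of the first base counted back from that start. Capitals mark TGACGTCA (the CRE), its half-site TGACG and the CArG box, and the half-site overlaps each CRE. Bases within an exon of the gene in GENCODE M21 were trimmed, which leaves Dusp1 (chr17:26508520-26508722, minus strand), Dusp5 (chr19:53528895-53529108, plus strand), Dusp6 (chr10:99262981-99263230, plus strand) and Dusp8 (chr7:142095285-142095534, minus strand).
Dusp1: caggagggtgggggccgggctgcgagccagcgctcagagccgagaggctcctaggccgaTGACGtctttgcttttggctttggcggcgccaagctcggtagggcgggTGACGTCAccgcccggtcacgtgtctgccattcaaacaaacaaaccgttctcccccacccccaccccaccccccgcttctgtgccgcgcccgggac
Dusp5: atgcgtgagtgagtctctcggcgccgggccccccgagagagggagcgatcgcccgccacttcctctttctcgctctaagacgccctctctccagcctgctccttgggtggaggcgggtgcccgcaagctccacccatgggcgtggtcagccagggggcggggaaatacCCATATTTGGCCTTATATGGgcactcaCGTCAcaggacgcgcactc
Dusp6: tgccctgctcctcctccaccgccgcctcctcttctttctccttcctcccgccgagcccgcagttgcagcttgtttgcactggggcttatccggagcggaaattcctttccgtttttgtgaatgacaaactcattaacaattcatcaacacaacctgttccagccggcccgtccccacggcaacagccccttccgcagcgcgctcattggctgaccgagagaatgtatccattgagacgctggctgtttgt
Dusp8: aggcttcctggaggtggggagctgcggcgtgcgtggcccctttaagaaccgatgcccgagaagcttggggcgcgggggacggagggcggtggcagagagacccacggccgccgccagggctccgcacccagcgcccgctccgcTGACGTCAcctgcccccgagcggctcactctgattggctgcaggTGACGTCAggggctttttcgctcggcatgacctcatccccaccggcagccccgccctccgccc
In Dusp1 and Dusp8 the GENCODE gene reaches further upstream, so that their windows lie within its introns. Dusp1 held a CRE at -143 and a separate half-site at -191, and Dusp8 held a CRE at -107 and another at -63. Dusp5 held CArG boxes at -82 and -72 and a half-site at -55. Among the members not printed, Dusp2 held the EGR motif GCGNGGGCG at -98 and Dusp16 held it at -138 beside a half-site at -70, while Dusp7 and Dusp10 held none of the motifs. No member held the AP-1 motif TGANTCA. Among the 32851 windows of the same length, 1.55% held the CRE, 17.8% the half-site, 1.47% a CArG box, 4.7% the EGR motif and 6.75% the AP-1 motif. A match is a run of letters and not a measured site.

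Each of the 36 libraries had between 21265627 and 52459224 reads assigned to genes. The ribosomal RNA precursor Rn45s made up 0.13 to 1.58% of them in the TRAP-seq LTP libraries of 120 min and 40.6 to 61.4% in the basal libraries of that time, which leaves fewer reads for other genes in the basal group. The summed level of 16 kidney genes, a tissue that the slices should not hold, was 3.33 to 7.63 CPM (read counts scaled to library size with TMM factors) in the same LTP libraries and 16.7 to 18.8 in the basal libraries, beside 1.43 to 2.51 in the TRAP-seq libraries of 30 and 60 min. In TRAP-seq of basal slices, 7, 6 and 7 of 10 markers of excitatory neurons were higher than in RNA-seq at 30, 60 and 120 min, and none was lower, with median ratios of 1.92, 1.77 and 1.72. Of 9 interneuron markers 8 were lower and 1 was higher at each time, and all 7 markers of astrocytes, 8 of oligodendrocytes, 7 of microglia and 6 of endothelial cells were lower, with median ratios between 0.0433 and 0.144 over these 5 lists. For TRAP-seq basal replicate 1 at 60 min the labels disagree on the time, and the members called between LTP and basal slices by TRAP-seq at that time numbered 4 with or without it. By marker ratios the pulldown was thus higher in excitatory neuron markers and lower in most markers of the other cells. The summed interneuron markers were closer, at 634 to 883 CPM in TRAP-seq and 764 to 917 in RNA-seq of basal slices. Of the kidney genes tested, 4 of 10 were higher in TRAP-seq at 120 min and 2 were lower, while none was higher at the earlier times. The 5 markers of dentate granule cells, which lie outside CA3 and CA1, summed to 176.0 to 247.0 CPM in TRAP-seq of basal slices, with median ratios of 1.14, 1.09 and 0.978.

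In basal slices the phosphatases differed widely in level and in the ratio of TRAP-seq to RNA-seq. Levels between genes are given here as TMM-normalized CPM per kilobase of transcript, over the 9 basal libraries of a population. In TRAP-seq, Dusp6 was the most abundant with a median of 88.8 (74.6 to 105.0), followed by Dusp8 with 42.8 (39.0 to 58.4) and Dusp7 with 38.2 (31.8 to 61.2), which overlapped each other. Dusp4 had 21.2 (18.1 to 22.6) and Dusp1 had 15.5 (13.1 to 18.8), again overlapping, and Dusp5 had 6.46 (4.88 to 7.89). Dusp16 had 2.39 (2.06 to 2.84), Dusp2 had 1.56 (1.21 to 1.87) and Dusp10 had 1.23 (1.03 to 1.68), the last pair overlapping. Dusp9 was nearly undetected, at 0.0955 (0.0 to 0.121), with 0 to 15 reads per TRAP-seq library. The library with no read, basal replicate 2 at 120 min, allows up to 3 reads, or 0.404 CPM, by counting error alone.

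By RNA-seq Dusp6 again led with 59.7 (52.5 to 64.2) on the same per-kilobase scale, and Dusp8 (29.6), Dusp7 (26.8) and Dusp1 (25.7) overlapped. Dusp4 followed with 17.4 (16.0 to 19.3), which overlapped Dusp1. Dusp10 had 8.36 (7.65 to 10.2) and Dusp5 had 7.58 (5.46 to 9.77), overlapping, with Dusp16 at 5.51 (5.31 to 5.87), Dusp2 at 2.47 (2.12 to 3.36) and Dusp9 at 0.195 (0.0478 to 0.235). Dusp10, a phosphatase of JNK and p38, stood above Dusp16 by RNA-seq and below it by TRAP-seq, with no overlap in either, and it lay below Dusp5 without overlap by TRAP-seq alone.

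The ratio of TRAP-seq to RNA-seq in basal slices was tested in 6 libraries at each time, and a gene was called where its adjusted p was under 0.1 and its log2 value beyond 0.4 in either direction, the limits that the study set. At 30 min 4 of 10 members were called higher in TRAP-seq and 5 lower, where 29.0% of 15072 genes were higher and 32.7% lower. At 60 min 4 were higher and 4 lower (27.0% and 31.1% of 15350 genes), and at 120 min 3 were higher and 4 lower of 9 tested (26.8% and 32.4% of 14788 genes). Calls in this comparison were common among all genes, and the members are best read by the size of each ratio. The ratio compares relative levels and is not the share of a gene's RNA on ribosomes. Cell type and ribosome association cannot be told apart in it. The ratios of 120 min rest on the TRAP-seq basal libraries with 40.6 to 61.4% Rn45s and a kidney sum of 16.7 to 18.8 CPM. The part of these in the ratios was not tested.

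Dusp10 had by far the lowest ratio. It stood at 3.06, 3.53 and 3.34 CPM in TRAP-seq and at 28.0, 28.43 and 26.4 in RNA-seq of basal slices at 30 min, so that the groups were far apart. Its log2 ratio was -2.91 ± 0.091 (SE, n = 3 replicates per group, adjusted p = 2.8e-10 by edgeR's quasi-likelihood test), -2.52 ± 0.14 at 60 min (adjusted p = 5.61e-09) and -2.47 ± 0.11 at 120 min (adjusted p = 5.41e-09). As linear ratios these were 0.133, 0.174 and 0.181, beside the medians of 0.0433 to 0.144 for the markers of interneurons, astrocytes, oligodendrocytes, microglia and endothelial cells. Dusp16, of the same class, was at 0.494, 0.486 and 0.465 of its RNA-seq level (adjusted p = 7.1e-07, 2.18e-07 and 4.49e-07). Dusp8, the remaining member of the class, went the other way at 1.61, 1.54 and 1.94 times (adjusted p = 3.61e-07, 1.14e-06 and 1.07e-05).

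The cytoplasmic ERK phosphatases Dusp6 and Dusp7 were higher in TRAP-seq at every time. Dusp6 was at 1.75, 1.68 and 1.63 times its RNA-seq level at 30, 60 and 120 min (adjusted p = 4.57e-08, 8.06e-08 and 3.46e-06), and Dusp7 at 1.7, 1.54 and 2.02 times (adjusted p = 1.26e-05, 6.97e-07 and 5.66e-07). Among the nuclear class, Dusp1 was lower in TRAP-seq, at 0.706, 0.666 and 0.567 times (adjusted p = 0.0017, 9.2e-06 and 3.5e-06), and so was Dusp2, at 0.699, 0.683 and 0.603 times (adjusted p = 0.019, 0.00159 and 0.00115). Without TRAP-seq replicate 3 or RNA-seq replicate 1, Dusp2 was not called at 30 min (log2 ratio -0.36 and -0.40). Dusp4 was higher in TRAP-seq at 30 min (log2 ratio 0.45 ± 0.053, adjusted p = 1.23e-05) and 60 min (0.46 ± 0.064, adjusted p = 3.36e-05), and at 120 min its value of 0.38 ± 0.069 was under the fold limit. Without RNA-seq replicate 1 the value at 60 min was under it as well (0.399), and without TRAP-seq replicate 1 or 3 the value at 120 min was called (0.412 and 0.436). Dusp5, the nuclear phosphatase specific for ERK, had log2 ratios of 0.033, -0.071 and -0.099 that passed at no time. Dusp9 was called lower only at 30 min (log2 ratio -0.66 ± 0.30, adjusted p = 0.0607), a call absent with DESeq2 (adjusted p = 0.308) and without a filter on low counts (adjusted p = 0.134), and lost without TRAP-seq replicate 2 or 3 or RNA-seq replicate 1 or 3 (adjusted p = 0.14 to 0.172). Without RNA-seq replicate 3 it was called at 60 min (-0.844, adjusted p = 0.0616).

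**Figure D1:**
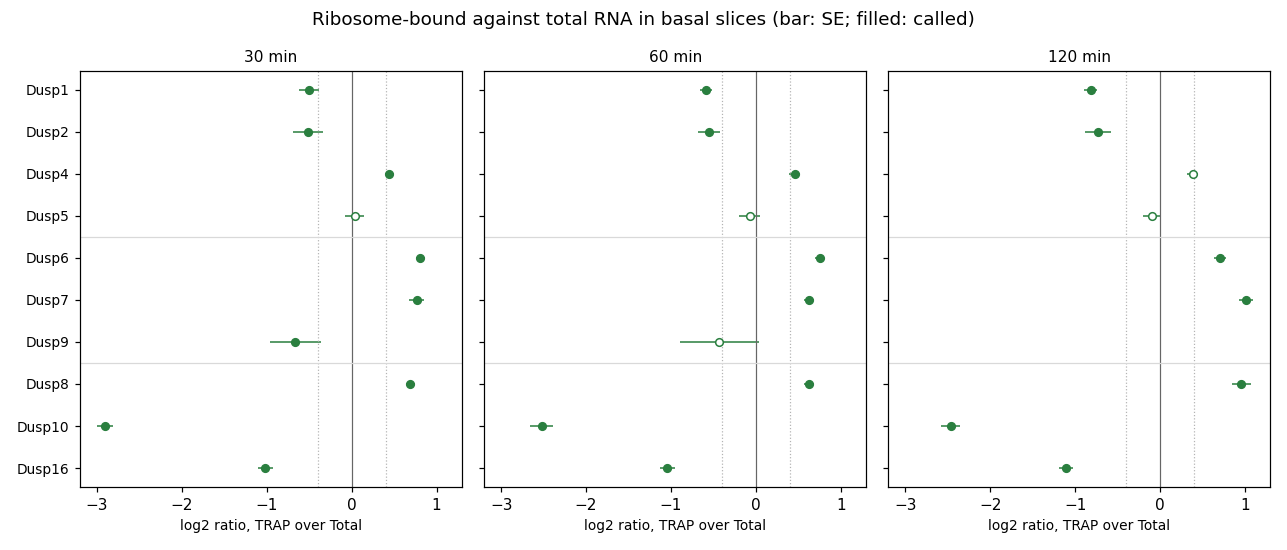
Log2 ratio of TRAP-seq over RNA-seq in basal slices for each phosphatase at 30, 60 and 120 min (points, with SE; filled where called; dotted lines at the fold limit of 0.4; horizontal lines divide nuclear, cytoplasmic and JNK or p38 classes). Dusp10 lies near -2.91, -2.52 and -2.47, while Dusp6, Dusp7 and Dusp8 lie above 0.4 at each time, and Dusp9 was not tested at 120 min.

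After induction of LTP, 6 of the 10 phosphatases were called higher than in basal slices in at least 1 of the 6 comparisons, and no member was called lower in any. By TRAP-seq the members called higher were 1 of 10 at 30 min (Dusp1), 4 of 9 tested at 60 min (Dusp1, Dusp2, Dusp5 and Dusp6) and 4 of 9 at 120 min (Dusp1, Dusp4, Dusp5 and Dusp6). Among all genes tested the shares called higher were 0.358% of 14264, 0.41% of 14651 and 1.37% of 13820. By RNA-seq they were 0 of 10 at 30 min, 2 of 10 at 60 min (Dusp1 and Dusp6) and 6 of 10 at 120 min (Dusp1, Dusp2, Dusp4, Dusp5, Dusp6 and Dusp10), beside 0.113% of 15063 genes, 0.212% of 15592 and 1.26% of 15330. The shares of all genes called lower were 0.0351%, 0.0614% and 0.268% by TRAP-seq and 0.00664%, 0.0128% and 0.111% by RNA-seq. At an unadjusted p under 0.05, lower members numbered 0, 2 and 1 by TRAP-seq and 1 at each time by RNA-seq, and higher members numbered 3 by RNA-seq at 30 min. DESeq2 also called no member in RNA-seq at 30 min. The edgeR counts above came from group means. A fit with the replicate number as a block, the replicate block, pairs LTP and basal slices of the same animals. It also called Dusp2 and Dusp5 by RNA-seq at 60 min (edgeR adjusted p = 0.00722 and 8.97e-06). In slices, more cells expressing a gene and more RNA per cell cannot be told apart.

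**Figure D2:**
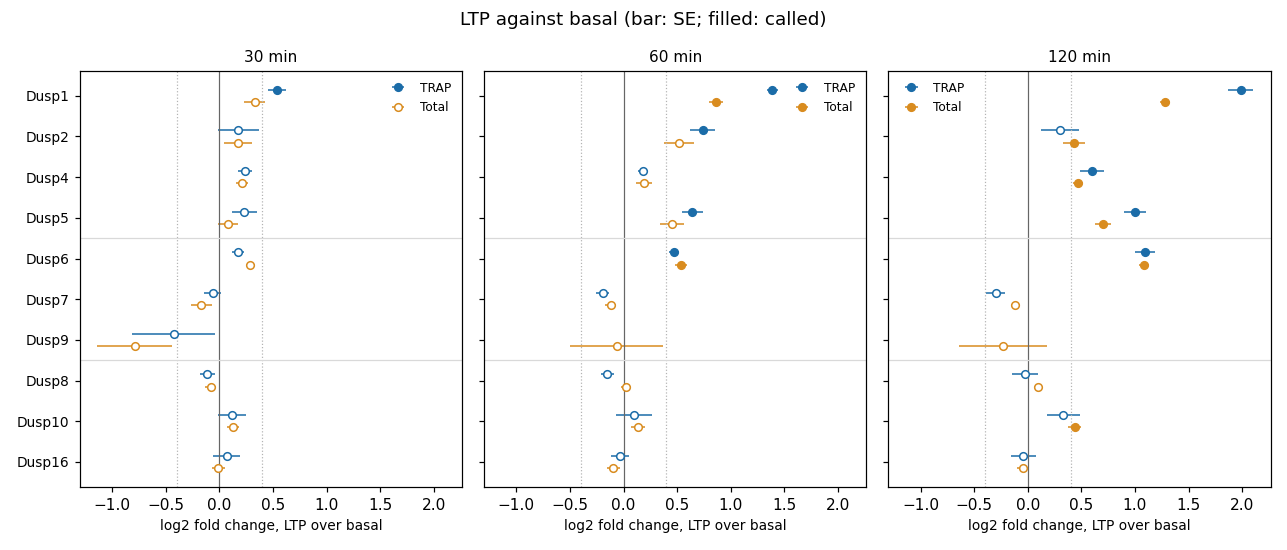
Log2 fold change of LTP over basal slices for each phosphatase at 30, 60 and 120 min in TRAP-seq (blue) and RNA-seq, marked Total (orange), with SE; filled points were called, dotted lines mark the fold limit of 0.4, and horizontal lines divide the nuclear, cytoplasmic and JNK or p38 classes. Dusp1 reached 1.99 in TRAP-seq at 120 min and Dusp6 reached 1.10 and 1.09 in TRAP-seq and RNA-seq, while Dusp7, Dusp8, Dusp9 and Dusp16 had no filled point.

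Dusp1 (MKP-1, chr17:26505590-26562128 in GRCm38, the build of all coordinates here), a nuclear phosphatase of p38, JNK and ERK and a classical immediate early gene, showed the largest fold change of the members called in each comparison that called any. In TRAP-seq at 30 min it stood at 43.68, 39.04 and 45.75 TMM-normalized CPM in LTP slices, against 30.86, 31.82 and 26.71 in basal slices. At 60 min the values were 69.41, 71.61 and 71.81 in LTP slices, against 27.48, 27.28 and 26.15 in basal slices. At 120 min they were 142.55, 149.95 and 114.0 in LTP slices, against 37.44, 32.03 and 32.53 in basal slices. The LTP libraries lay above every basal library at each time. The log2 fold changes were 0.54 ± 0.086 (adjusted p = 0.034), 1.39 ± 0.052 (adjusted p = 4.27e-07) and 1.99 ± 0.12 (adjusted p = 4.59e-06, edgeR), that is 1.45, 2.62 and 3.96 times. The call at 30 min was lost without LTP replicate 1, basal replicate 1 or basal replicate 2 (adjusted p = 0.138, 0.124 and 0.114), and the replicate block gave 0.000118.

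By RNA-seq Dusp1 stood at 57.9, 58.83 and 60.46 CPM in LTP slices at 30 min, against 51.24, 51.38 and 37.44 in basal slices (log2 fold change 0.33 ± 0.095, adjusted p = 0.408, not called). At 60 min it stood at 82.67, 84.68 and 80.56 in LTP slices, against 45.71, 49.68 and 41.63 in basal slices (0.86 ± 0.064, adjusted p = 1.57e-05). At 120 min it stood at 152.06, 167.08 and 173.48 in LTP slices, against 67.86, 64.49 and 70.34 in basal slices (1.28 ± 0.048, adjusted p = 2.53e-10). The basal level itself was higher at 120 min than at the earlier times by RNA-seq, and since each time was prepared and sequenced as a set, time and run cannot be told apart in that level. An exon overlap with Ergic1 on the other strand touches the Dusp1 gene, and the libraries keep no strand.

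**Figure D3:**
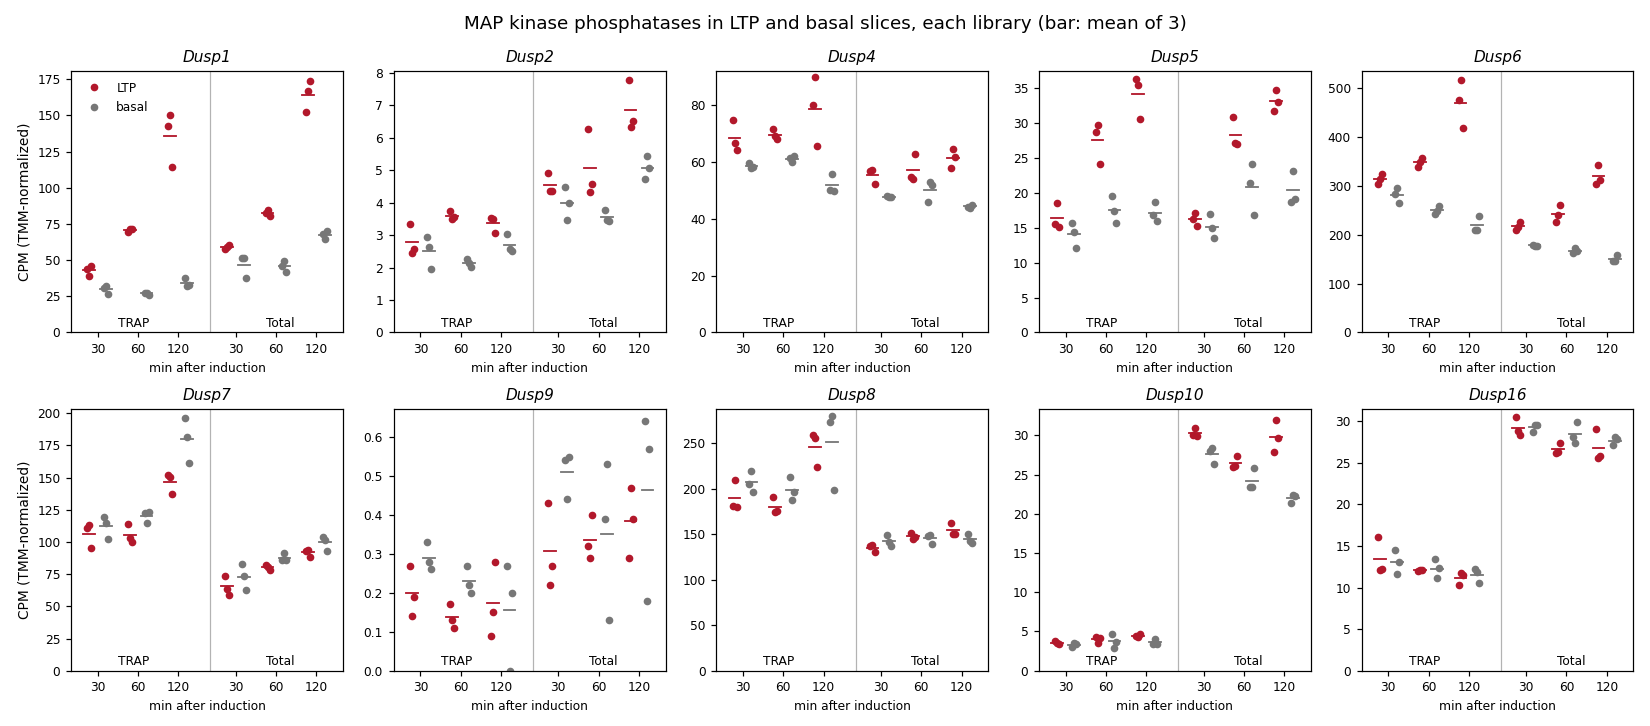
TMM-normalized CPM (each axis from 0) of the 10 phosphatases in every library, LTP (red) left of basal (grey) at 30, 60 and 120 min, TRAP-seq left and RNA-seq, marked Total, right in each panel; short bars are means of 3. At 120 min in TRAP-seq the Dusp1 points sit at 114.0 to 149.95 in LTP slices and 32.03 to 37.44 in basal slices, and Dusp10 lies between 2.88 and 4.74 in TRAP-seq.

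Dusp5 (chr19:53529109-53542431), the nuclear phosphatase specific for ERK, was higher in LTP slices by TRAP-seq from 60 min on. It stood at 28.7, 29.78 and 24.19 CPM in LTP slices at 60 min, against 19.51, 17.43 and 15.75 in basal slices (log2 fold change 0.64 ± 0.097, adjusted p = 0.0143). At 120 min it stood at 36.28, 35.47 and 30.62 in LTP slices, against 16.77, 18.71 and 15.97 in basal slices (1.00 ± 0.11, adjusted p = 0.000449). The groups did not overlap at either time, whereas at 30 min they did (0.23 ± 0.12, adjusted p = 0.434). By RNA-seq it was called at 120 min, with 31.72, 34.76 and 33.04 in LTP slices, against 18.75, 23.18 and 19.18 in basal slices (0.70 ± 0.074, adjusted p = 2.45e-05). At 60 min by RNA-seq the value was 0.45 ± 0.11 (adjusted p = 0.322), and with the replicate block the adjusted p was 8.97e-06. DESeq2 called it there as well (adjusted p = 0.0144), as did the fit without basal replicate 2 (0.0583). The gene overlaps an antisense gene, AC137853.2, in its exons, and reads of the pair cannot be told apart.

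Dusp4 (MKP-2, chr8:34807297-34819894), another nuclear phosphatase, was called only at 120 min. By TRAP-seq it stood at 80.13, 89.83 and 65.74 CPM in LTP slices, against 50.16, 55.72 and 49.69 in basal slices (log2 fold change 0.60 ± 0.11, adjusted p = 0.0255). By RNA-seq it stood at 57.72, 64.47 and 61.65 in LTP slices, against 44.25, 43.95 and 44.88 in basal slices (0.47 ± 0.047, adjusted p = 1.52e-05). LTP libraries lay above all basal libraries at 30 and 60 min too, in both populations, but by log2 values of 0.18 to 0.24 that were not called. The TRAP-seq call was lost without LTP replicate 1, LTP replicate 2 or basal replicate 1 (adjusted p = 0.12, 0.105 and 0.182).

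Dusp2 (PAC-1, chr2:127336159-127338376), an inducible nuclear phosphatase best known from immune cells, was the least abundant of its class, with 19 to 160 reads per TRAP-seq library. At 60 min by TRAP-seq it stood at 3.74, 3.5 and 3.57 CPM in LTP slices, against 2.27, 2.14 and 2.03 in basal slices (log2 fold change 0.74 ± 0.12, adjusted p = 0.0213). At 120 min the groups were separate but closer, with 3.53, 3.51 and 3.08 in LTP slices, against 3.03, 2.56 and 2.52 in basal slices (0.30 ± 0.17, adjusted p = 0.532). The TRAP-seq effect at 120 min differed from that at 60 min by -0.43 ± 0.235, which was not called (adjusted p = 0.856, edgeR). By RNA-seq it was called at 120 min, with 7.78, 6.33 and 6.51 in LTP slices, against 4.73, 5.43 and 5.06 in basal slices (0.43 ± 0.10, adjusted p = 0.0399). At 60 min by RNA-seq the value was 0.52 ± 0.14 (adjusted p = 0.601), and the replicate block called it (adjusted p = 0.00722). The TRAP-seq call at 60 min was lost without LTP replicate 3 or basal replicate 3 (adjusted p = 0.122 and 0.13), and the RNA-seq call at 120 min without LTP replicate 1, basal replicate 1 or basal replicate 3 (0.125, 0.172 and 0.121). DESeq2 gave no adjusted p for the TRAP-seq value at 60 min.

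Among the cytoplasmic ERK phosphatases, Dusp6 (MKP-3, chr10:99263231-99267489), the principal cytoplasmic brake on ERK, was higher in LTP slices from 60 min on and Dusp7 was not. By TRAP-seq Dusp6 stood at 303.42, 312.95 and 324.01 CPM in LTP slices at 30 min, against 282.24, 294.53 and 265.01 in basal slices (log2 fold change 0.17 ± 0.056, adjusted p = 0.215). At 60 min it stood at 337.49, 348.13 and 356.47 in LTP slices, against 241.58, 248.19 and 258.62 in basal slices (0.47 ± 0.047, adjusted p = 0.000708). At 120 min it stood at 474.48, 516.29 and 417.88 in LTP slices, against 208.47, 209.55 and 238.65 in basal slices (1.10 ± 0.094, adjusted p = 8.12e-05). The groups were separate at all 3 times.

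RNA-seq gave Dusp6 values of nearly the same size. It stood at 226.26, 239.06 and 259.94 CPM in LTP slices at 60 min, against 161.63, 172.71 and 166.93 in basal slices (log2 fold change 0.54 ± 0.057, adjusted p = 0.000508). At 120 min it stood at 303.89, 342.31 and 311.8 in LTP slices, against 146.69, 146.97 and 157.54 in basal slices (1.09 ± 0.044, adjusted p = 6.36e-10). At 30 min the value of 0.29 ± 0.043 had an adjusted p of 0.0223 but lay under the fold limit, with LTP libraries at 209.95 to 226.46 and basal libraries at 176.44 to 179.59.

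Dusp7 (MKP-X, chr9:106368632-106375724), which like Dusp6 acts on ERK in the cytoplasm, had log2 values between -0.30 and -0.06 in the 6 comparisons and was called in none. By TRAP-seq at 120 min it stood at 152.03, 150.37 and 137.0 CPM in LTP slices, against 196.48, 181.82 and 161.2 in basal slices (-0.30 ± 0.087, adjusted p = 0.164). These groups did not overlap, nor did those of 60 min in either population. With the replicate block the adjusted p at 60 and 120 min by TRAP-seq was 0.000155 and 0.000859, with log2 values of -0.20 and -0.30 that remained under the fold limit. Dusp9 (MKP-4, chrX:73639419-73643514) had 6 to 24 reads per RNA-seq library and was not tested in TRAP-seq at 60 and 120 min. Its value was -0.43 ± 0.39 by TRAP-seq and -0.79 ± 0.35 by RNA-seq at 30 min (adjusted p = 0.691 and 0.668), so that no difference was shown.

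Among the phosphatases of JNK and p38, only Dusp10 (MKP-5, chr1:184013302-184075636) was called, by RNA-seq at 120 min. It stood there at 27.81, 31.9 and 29.7 CPM in LTP slices, against 21.37, 22.41 and 22.31 in basal slices (log2 fold change 0.44 ± 0.060, adjusted p = 0.000368). Without LTP replicate 2 the value was 0.38, under the fold limit. By TRAP-seq at 120 min it stood at 4.39, 4.32 and 4.74 in LTP slices, against 3.43, 4.04 and 3.38 in basal slices, a log2 value of 0.33 ± 0.15 (adjusted p = 0.424) from 30 to 51 reads per basal library and 144 to 171 per LTP library. The gene was called by RNA-seq alone, but the difference between the populations' LTP effects was -0.10 ± 0.16 and was not called (adjusted p = 0.92).

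Dusp8 (chr7:142079490-142095843), a phosphatase of JNK that is abundant in brain, had log2 values between -0.15 and 0.095 and was called in no comparison. By TRAP-seq at 120 min it stood at 259.14, 255.76 and 224.54 CPM in LTP slices, against 273.98, 280.34 and 198.7 in basal slices, and the groups overlapped. With the replicate block its TRAP-seq value at 60 min was -0.15 (adjusted p = 0.00031), under the fold limit. By RNA-seq the block gave 0.024 at 60 min and 0.095 at 120 min (adjusted p = 0.903 and 0.0893). An exon overlap with Gm32786 on the other strand touches the Dusp8 gene. Dusp16 (MKP-7, chr6:134715468-134792625), which binds JNK, had values between -0.095 and 0.068 and overlapping groups in all 6 comparisons. At 120 min it stood at 10.29, 11.81 and 11.51 in LTP slices and 12.19, 11.84 and 10.53 in basal slices by TRAP-seq.

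Set side by side, the classes differed in how many members were called, and within each class the members varied. The 4 nuclear members gave 1, 3 and 3 calls by TRAP-seq at 30, 60 and 120 min and 0, 1 and 4 by RNA-seq. With the replicate block the RNA-seq count at 60 min was 3, as by TRAP-seq, since Dusp2 and Dusp5 were then called too (adjusted p = 0.00722 and 8.97e-06). The cytoplasmic class gave 0, 1 and 1 calls in TRAP-seq and in RNA-seq alike, each of them Dusp6, and the 3 members of the JNK and p38 class gave none except Dusp10 by RNA-seq. Over all genes 0.113 to 1.37% were called higher in these comparisons, so that a count of 0 in a class of 3 is near the background. At 120 min the median log2 fold change by TRAP-seq was 0.80 in the nuclear class (0.30 to 1.99), 0.40 over the 2 cytoplasmic members tested (-0.30 and 1.10) and -0.026 in the JNK and p38 class (-0.04 to 0.33), beside -0.015 over all genes. By RNA-seq the medians were 0.585, -0.12 and 0.095, beside -0.001 over all genes. A difference between classes was not tested.

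At 120 min the TRAP-seq groups also differed in Rn45s and in the kidney genes given above. With Rn45s left out, the TRAP-seq values at 120 min were 1.99 for Dusp1, 0.60 for Dusp4, 1.00 for Dusp5 and 1.10 for Dusp6, all still called. That fit alters neither the kidney genes nor the reads left for other genes. These were 10146353 to 16753607 in basal and 33042265 to 35267718 in LTP libraries, and their part was not tested. Dusp1, Dusp4, Dusp5 and Dusp6 were also called by RNA-seq at 120 min, where the kidney sum was 12.7 to 14.4 CPM in LTP slices and 13.0 to 23 in basal slices. Summed markers of other cells overlapped between LTP and basal libraries of TRAP-seq, except for the 7 microglial markers at 120 min (23 to 25.0 in LTP slices and 25.6 to 32.7 in basal slices) and the 5 dentate granule cell markers at 60 min (200 to 244.0 in LTP slices and 245.0 to 247.0 in basal slices). In RNA-seq the granule cell markers summed to 177.0 to 192.0 at 60 min in LTP slices and 196.0 to 204.0 in basal slices. In RNA-seq at 120 min the 7 astrocyte markers summed to 5610 to 5970 in LTP slices and 5400 to 5570 in basal slices, and the 6 endothelial markers to 55.4 to 60.6 in LTP slices and 50.9 to 51.9 in basal slices. None of the markers in these 4 lists was at 0, and their part in the results was not tested.

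Dusp1 was the member for which the LTP effect was larger in ribosome-associated RNA of excitatory neurons than in total RNA. The LTP effect by TRAP-seq exceeded that by RNA-seq by 0.53 ± 0.069 on the log2 scale at 60 min (adjusted p = 0.00183 by edgeR's interaction test, 12 libraries) and by 0.71 ± 0.12 at 120 min (adjusted p = 0.0133). Put otherwise, this test compares the ratio of TRAP-seq to RNA-seq between LTP and basal slices. The basal level of Dusp1 was lower in TRAP-seq, as given above. At 30 min the difference of 0.19 ± 0.082 was not called (adjusted p = 0.29). The members called were 0, 1 and 1 of 10, where 0.261% of 15336, 0.0955% of 15712 and 0.266% of 15405 genes had a larger effect by TRAP-seq. At 30 min 1 member had an unadjusted p under 0.05 in each direction. The call at 120 min was lost without replicate 1 or replicate 2 (adjusted p = 0.78 and 0.334, with values of 0.69 and 0.63). In TRAP-seq at 120 min, Rn45s made up 40.6 to 61.4% of basal and 0.13 to 1.58% of LTP libraries. The kidney sum was 16.7 to 18.8 CPM in basal and 3.33 to 7.63 in LTP libraries. Their part in the difference between populations was not tested.

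For the remaining members the difference was not called. Dusp5 differed by 0.13 ± 0.098, 0.19 ± 0.11 and 0.29 ± 0.11 at 30, 60 and 120 min (adjusted p = 0.57, 0.603 and 0.447), and Dusp6 by -0.13 ± 0.053, -0.062 ± 0.060 and 0.020 ± 0.085 (adjusted p = 0.266, 0.812 and 0.972). Dusp4 differed by 0.14 ± 0.11 at 120 min (adjusted p = 0.794). Dusp2 was called by TRAP-seq at 60 min and by RNA-seq at 120 min, but the difference between the populations was 0.24 ± 0.17 and -0.13 ± 0.21 at these times (adjusted p = 0.73 and 0.914), so that no difference in timing between them was shown.

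**Figure D4:**
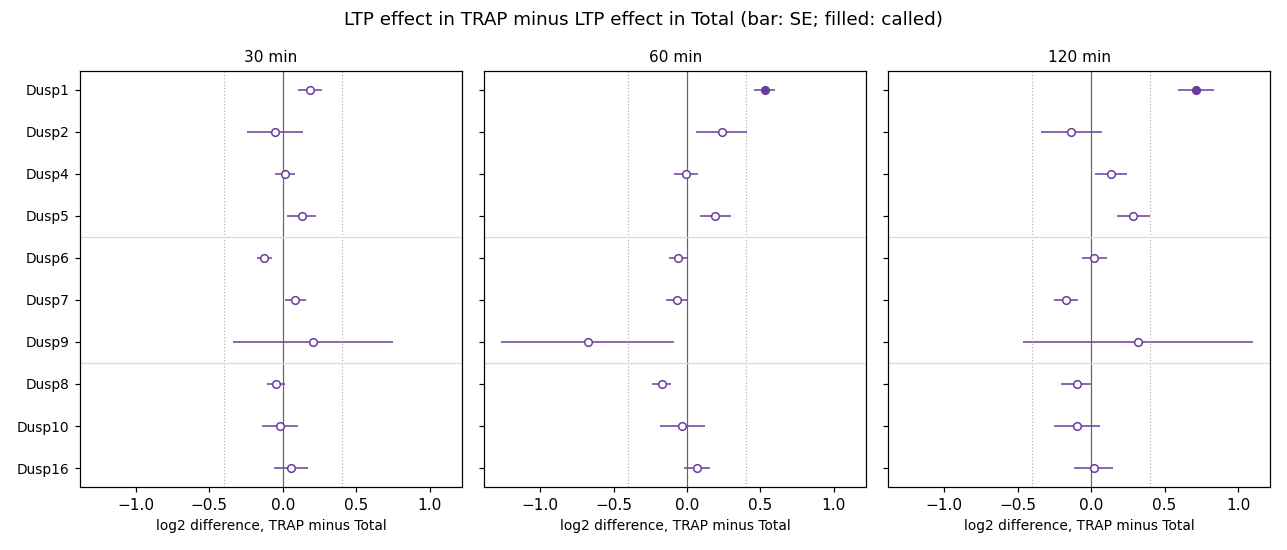
Difference between the LTP effect in TRAP-seq and that in RNA-seq (log2, TRAP minus Total, with SE) for each phosphatase at 30, 60 and 120 min; filled points were called, dotted lines mark 0.4, and horizontal lines divide the classes. Dusp1 is filled at 60 min (0.53) and 120 min (0.71), and Dusp9, with few reads, has the widest bars.

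The LTP effect also differed between times for Dusp1, Dusp5 and Dusp6, each of them larger later. By TRAP-seq the Dusp1 effect was larger at 60 than at 30 min by 0.86 ± 0.13 (adjusted p = 0.00927, edgeR with 18 libraries), at 120 than at 60 min by 0.60 ± 0.13 (adjusted p = 0.0903) and at 120 than at 30 min by 1.46 ± 0.13 (adjusted p = 1.82e-06). The Dusp6 effect was larger at 120 than at 60 min by 0.63 ± 0.10 (adjusted p = 0.00765) and than at 30 min by 0.93 ± 0.10 (adjusted p = 1.61e-05). The Dusp5 effect was larger at 120 than at 30 min by 0.78 ± 0.17 (adjusted p = 0.0346). The counts of members called were 1, 2 and 3 of 10 for 60 against 30, 120 against 60 and 120 against 30 min, where 0.0538%, 0.209% and 0.471% of 14865 genes had a larger effect. The Dusp1 call for 120 against 60 min was lost in 13 of the 18 fits that left out a library, and the Dusp5 call for 120 against 30 min in 5 of them. The TRAP-seq groups of 120 min also differed in Rn45s and kidney genes, as given above. Their part in these differences between times was not tested.

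By RNA-seq the counts of members called were 0, 1 and 3 of 10 in the same order, where 0.0%, 0.387% and 0.704% of 15777 genes had a larger effect. For 60 against 30 min edgeR called no gene at all, 821 genes having a larger and 532 a smaller effect at an unadjusted p under 0.05, and 3 members a larger one. The Dusp6 effect was larger at 120 than at 60 min by 0.55 ± 0.071 (adjusted p = 0.000342) and than at 30 min by 0.80 ± 0.072 (adjusted p = 1.21e-06). At 120 against 30 min the Dusp1 effect was larger by 0.95 ± 0.12 (adjusted p = 3.72e-05) and the Dusp5 effect by 0.62 ± 0.16 (adjusted p = 0.0754), a call lost in 10 of the 18 fits that left out a library. With the replicate block Dusp1 was also called at 60 against 30 min (0.53 by RNA-seq, adjusted p = 0.00888) and at 120 against 60 min (0.42, adjusted p = 0.00938). In TRAP-seq the block added Dusp5 at 60 against 30 min (0.42, adjusted p = 0.0298) and Dusp4 at 120 against 60 min (0.405, adjusted p = 0.00371). By edgeR with group means the Dusp4 effect at 120 min was not called against 60 or 30 min. It was larger by 0.43 ± 0.12 and 0.37 ± 0.12 by TRAP-seq (adjusted p = 0.361 and 0.428). By RNA-seq it was larger by 0.28 ± 0.088 and 0.26 ± 0.090 (adjusted p = 0.396 and 0.326). Each time was prepared and sequenced as a set, with single-end reads at 30 min and paired-end reads later, and run and time cannot be told apart.

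Of 22 kinases of the MAP kinase cascades themselves, 20 were tested by TRAP-seq and 21 by RNA-seq, and edgeR called none in any LTP comparison. Over all genes 0.113 to 1.37% were called higher and 0.00664 to 0.268% lower, so that a count of 0 in a list of this size is near the background. At an unadjusted p under 0.05 they numbered 1 higher and 4 lower by TRAP-seq at 30 and at 60 min, and 1 higher and 1 lower at 120 min in each population, with none by RNA-seq earlier. Their median log2 values lay between -0.07 and 0.019 over the 6 comparisons. All 11 kinases downstream of MAP kinases were tested and none was called, with medians between -0.11 and 0.015, and up to 2 were higher and none lower at an unadjusted p under 0.05. Of 21 further phosphatases that act on MAP kinases or share the dual-specificity fold, 17 or 18 were tested and 1 was called. That gene was Dusp14, a small dual-specificity phosphatase, which was higher by RNA-seq at 120 min (log2 fold change 0.48 ± 0.061, adjusted p = 0.000169), where 1.26% of all genes were.

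The genes whose 6 log2 fold changes lay nearest to each called member were sought among 346 genes tested in all 6 comparisons and called in at least 1. For Dusp1 they were Klf4, Trib1 and Klf2, at Euclidean distances of 0.36, 0.40 and 0.45 on the log2 scale. For Dusp5 they were Jun, Smad7 and Dnajb1 (0.24, 0.27 and 0.33), and for Dusp6 Nfil3, Rgs4 and Sik1 (0.24, 0.30 and 0.34). For Dusp4 they were Otud1, Sgk1 and Rasd1 (0.14, 0.15 and 0.18), for Dusp2 Osm, Zfp36 and Spry1 (0.41, 0.42 and 0.45) and for Dusp10 F8a, Taf7 and Atoh8 (0.11, 0.12 and 0.13). No member was among the 3 nearest genes of another.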

How the data were processed

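STAR alignments to mm10 made by the authors gave the raw read counts per gene symbol that were deposited in a table for each time, and these counts of 36 libraries were the input here. TruSeq libraries followed rRNA depletion. Authors' normalized values, fold changes and FDR values stand in the same tables and were not used. Of 27 symbols turned into dates, 25 were recovered from gene IDs and 2 left out. One basal TRAP-seq library has a title of 60 min and a label field of 30 min and was taken as 60 min. Counts hold no strand, and genes that overlap are uncertain.

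Genes were tested with edgeR 4.0.16 in R 4.3.3 (TMM, filterByExpr, quasi-likelihood test, Benjamini-Hochberg over all genes tested, SE from the fold change and the F statistic). Levels are TMM-normalized over the 18 libraries of a population with Rn45s left out. The log2 ratios of LTP to basal means within a population differed from fitted values by at most 0.03, Dusp9 aside. TRAP-seq and RNA-seq levels were scaled apart, so ratios between them can lie further from the fitted TRAP-seq to RNA-seq ratios. LTP and basal slices of a number came from the same animals by the series description, and their deviations from group means correlated by 0.108 to 0.426 for the same number and by at most 0.07 otherwise, so that the numbers pair the samples. Replicates were separate pools of mice. The interaction was blocked by homogenate, and the remaining main fits used group means without the pairing. Alternatives were DESeq2 1.42.0, RLE scaling, no filter, the replicate block, Rn45s left out, a joint fit, removal of length and GC trends, and leaving out each library. The tests were tried on simulated counts. Python 3.11.15 read the tables. Transcript lengths came from GENCODE M21.

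The 10 members were taken by gene name with no threshold on their values, but this family, the lists and the named genes (the members, at most 4 called genes of each list, and the 3 nearest patterns) were chosen with earlier results of these data known.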

Additional observations from a re-analysis of the deposited data

Results flagged for a closer look

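These members had an LTP effect that differed between populations or times by a test of the difference itself, as log2 values. The Dusp1 effect was larger by TRAP-seq than by RNA-seq by 0.53 at 60 min, and by 0.71 at 120 min. In TRAP-seq it was larger at 60 than at 30 min by 0.86, at 120 than at 60 min by 0.6 and at 120 than at 30 min by 1.46, and by RNA-seq at 120 than at 30 min by 0.95. The Dusp6 effect was larger at 120 than at 60 min by 0.63 by TRAP-seq and 0.55 by RNA-seq, and at 120 than at 30 min by 0.93 and 0.8. The Dusp5 effect was larger at 120 than at 30 min by 0.78 by TRAP-seq and 0.62 by RNA-seq. Without single replicates, the Dusp1 call between populations at 120 min was lost in 2 of 3 fits. Without single libraries, the Dusp1 call for 120 against 60 min by TRAP-seq was lost in 13 of 18 fits. Those of Dusp5 were lost in 5 of 18 by TRAP-seq and 10 of 18 by RNA-seq. The TRAP-seq groups of 120 min also differed in Rn45s and kidney genes.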

How the results depend on the processing

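Of the counts of members called, 244 of 273 alternative values stayed within 1.5 times the reported count. With the replicate block, 4 members were called by RNA-seq at 60 min (also 4 with length and GC trends removed), 2 for the effect at 60 against 30 min by TRAP-seq, 1 by RNA-seq, and 2 at 120 against 60 min by RNA-seq. Without a filter on low counts, the last pair of counts was again 1 and 2. The block changed no other call of a member beyond those named in the report. Leaving out libraries gave 0 to 1 members by TRAP-seq at 30 min, 0 to 1 for the difference between populations at 120 min, 1 to 3 at 120 against 60 min by TRAP-seq, and by RNA-seq 0 to 1 at 60 against 30 min and 1 to 2 at 120 against 60 min. Fits without a library rest on fewer samples, and no other cause was tested.

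No called value changed sign, and 28 values that were not called did. Without single libraries, the LTP values ranged by TRAP-seq from -0.127 to 0.014 (Dusp7, 30 min), -0.089 to 0.145 (Dusp16, 30 min), -0.059 to 0.293 (Dusp10, 60 min), -0.096 to 0.037 (Dusp16, 60 min), -0.160 to 0.060 (Dusp8, 120 min) and -0.095 to 0.015 (Dusp16, 120 min). By RNA-seq they ranged from -0.039 to 0.013 (Dusp16, 30 min), -0.487 to 0.412 (Dusp9, 60 min), -0.008 to 0.043 (Dusp8, 60 min) and -0.623 to 0.060 (Dusp9, 120 min). The TRAP-seq to RNA-seq ratios ranged from -0.028 to 0.138, -0.199 to 0.059 and -0.150 to 0.010 for Dusp5 at 30, 60 and 120 min, and from -0.844 to 0.051 for Dusp9 at 60 min. By RNA-seq, Dusp16 at 30 min was 0.007 and, with the block, 0.009 with length and GC trends removed, and 0.001 in the joint fit, and Dusp8 at 60 min was -0.026 and -0.025 with the trends removed. Dusp9 had 0 to 15 reads per TRAP-seq library and 6 to 24 per RNA-seq library. In TRAP-seq Dusp2 had 19 to 160 reads and Dusp10 had 30 to 194. The part of read depth in these values was not tested.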
